A study of Danio rerio with 58 samples.

Results

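The genes described here are stab1, stab2, colec12, mrc1a and dab2, a group of scavenger receptors of venous endothelium together with an adaptor used for their uptake. They were taken by symbol from a count table of 35117 zebrafish genes, which held 1 row for each of the 5 names (ENSDARG00000076484, ENSDARG00000045748, ENSDARG00000061140, ENSDARG00000102100 and ENSDARG00000031761 in that order). Single cells of the trunk dorsal aorta came from embryos carrying a green fluorescent reporter and a nuclear Eos reporter, both driven by flk1, in the line Tg(flk1:eGFP);Tg(flk1:NLS-Eos). Eos was switched to red by light in the roof or in the floor of the vessel, and red cells were picked by hand. Each cell became 1 Smart-seq2 library, in which polyA RNA is copied along its length from an oligo-dT primer. At 21 hours post fertilization (hpf) 18 cells were taken from each side, and at 28 hpf 10 came from the roof and 12 from the floor. No treatment or mutation was named, and every group carried the same reporters. The reporters follow flk1, also called kdrl, so the picked cells are those that had made flk1-driven Eos, and the labels do not say from how many embryos. For that reason a group is treated as a single sample, and differences between groups were not tested.

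Scavenger endothelial cells take up waste macromolecules from the blood through surface receptors, clathrin-coated pits and lysosomes, and in zebrafish embryos they line the caudal and cardinal veins. Stabilin-1 and stabilin-2, encoded by stab1 and stab2, are large receptors for modified proteins and lipoproteins, and stabilin-2 also clears hyaluronan. The gene colec12 encodes a membrane collectin with a collagen-like stalk and a lectin domain, and mrc1a encodes a mannose receptor that is used as a marker of veins and lymphatics in zebrafish. The product of dab2 is not a receptor but a cytosolic adaptor that links cargo receptors to clathrin.

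Levels are given as CPM, the counts of a gene scaled to a total of 1000000 for the cell or group. For a group, each cell was thinned to 200000 reads and the reads of its cells were summed, which left out roof cell 9 of 21 hpf. Values of single cells use all reads of the cell. Intervals are at 95%. For levels (exact Poisson) and ratios (exact binomial) they hold the error of read numbers and leave out how cells or embryos vary. For shares of cells (Clopper-Pearson) they take each cell as an independent draw. Cells that share embryos need not be independent, so the intervals of shares are a description and may be too narrow. Total counts per cell ranged from 129849 to 4693992 in the roof and from 216581 to 4227288 in the floor at 21 hpf. At 28 hpf they were deeper, with 3630613 to 5574794 in roof cells and 4339995 to 8254178 in floor cells. Transcript lengths were not used, so levels are compared between groups and not between genes.

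The roof cells carried an endothelial programme, and most floor cells had a smaller share of their counts on it. A pan-endothelial list of 20 genes, which includes tal1 and lmo2 that blood cells also use, took a median of 2.28% of the counts in roof cells and 0.279% in floor cells at 21 hpf. The later stage had medians of 2.05% and 0.212%. There 9 of the 20 genes, among them cdh5, tie1 and clec14a, had no thinned read in the floor sum. By sums at 28 hpf, 16 of the 20 were lower in the floor by 2-fold or more, 1 was within and 3 were higher. These 3 were vwf (51.25 CPM against 0 in the roof), tal1 (413 against 97) and lmo2 (729 against 233.5). The median share of 20 erythroid genes was 1.60% in floor cells of 21 hpf and 1.14% in those of 28 hpf, against 0.00733% and 0 in the roof. More than 1% of the counts fell on that list in 12 of 18 floor cells at 21 hpf and in 6 of 12 at 28 hpf. A pan-endothelial share higher than that of the lowest roof cell (0.686%) was reached by 4 floor cells of 21 hpf, numbers 3, 6, 16 and 18, which had 0.919% to 3.48% and are called the endothelial floor cells below. Of 12 myeloid markers, the macrophage genes mpeg1.1, mfap4, csf1ra and marco had no thinned read in any group, but 5 of the 6 measured at 21 hpf and 4 of the 5 measured at 28 hpf were higher in the floor by 2-fold or more. Among them the myeloperoxidase gene mpx had 459 CPM in the floor and 0.294 in the roof at 21 hpf, and cebpa 569 and 176. Of 10 pronephros markers, a list that contains dab2, 6 had no thinned read in any group, including cdh17 and lrp2a. Of 3 measured at each stage, 1 was higher in the floor by 2-fold or more, 1 lower and 1 within. The higher one was slc20a1a, at 56.1 CPM in the floor at 21 hpf and 11.25 at 28 hpf, with no thinned read in the roof. At 28 hpf, floor cell 6 had 8.64% of its counts on muscle genes. What part these differences between cells have in the results below was not tested.

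Of 8 measured venous genes, 3 were lower by 2-fold or more in the roof at 28 hpf than in the roof at 21 hpf, nr2f2 and flt4 among them. Of the rest, 2 were higher and 3 within 2-fold. Among all 11631 genes measured in this comparison, 35.3% were lower and 22.7% higher. The arterial genes dll4 and efnb2a were found in every thinned roof cell. The venous regulator gene nr2f2 stood at 63.8 CPM (55.6 to 72.9) in the roof at 21 hpf, with 5 or more thinned reads in 5 of 17 cells, and had no thinned read in the roof at 28 hpf. Roof cell 11 gave 69.0% of the summed per-cell levels of nr2f2 at 21 hpf, and the median of the roof cells was 0. The receptor gene flt4 was found at 209 CPM in the roof at 21 hpf and 26 at 28 hpf. The venous ephrin receptor gene ephb4a had 47.4 and 33.5 CPM, and was detected so in 8 of 17 and 6 of 10 cells. The hyaluronan receptor genes lyve1a and lyve1b, markers of veins and lymphatics, had no thinned read in any group. The arterial Notch ligand gene dll4 was at 1481 CPM in the roof at 21 hpf and 2936 at 28 hpf, and was detected in all 17 and all 10 thinned cells. Every roof cell held dll4 reads, so the cells with reads of the 5 scavenger genes did too, as would those of any other gene.

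**Figure D1:**
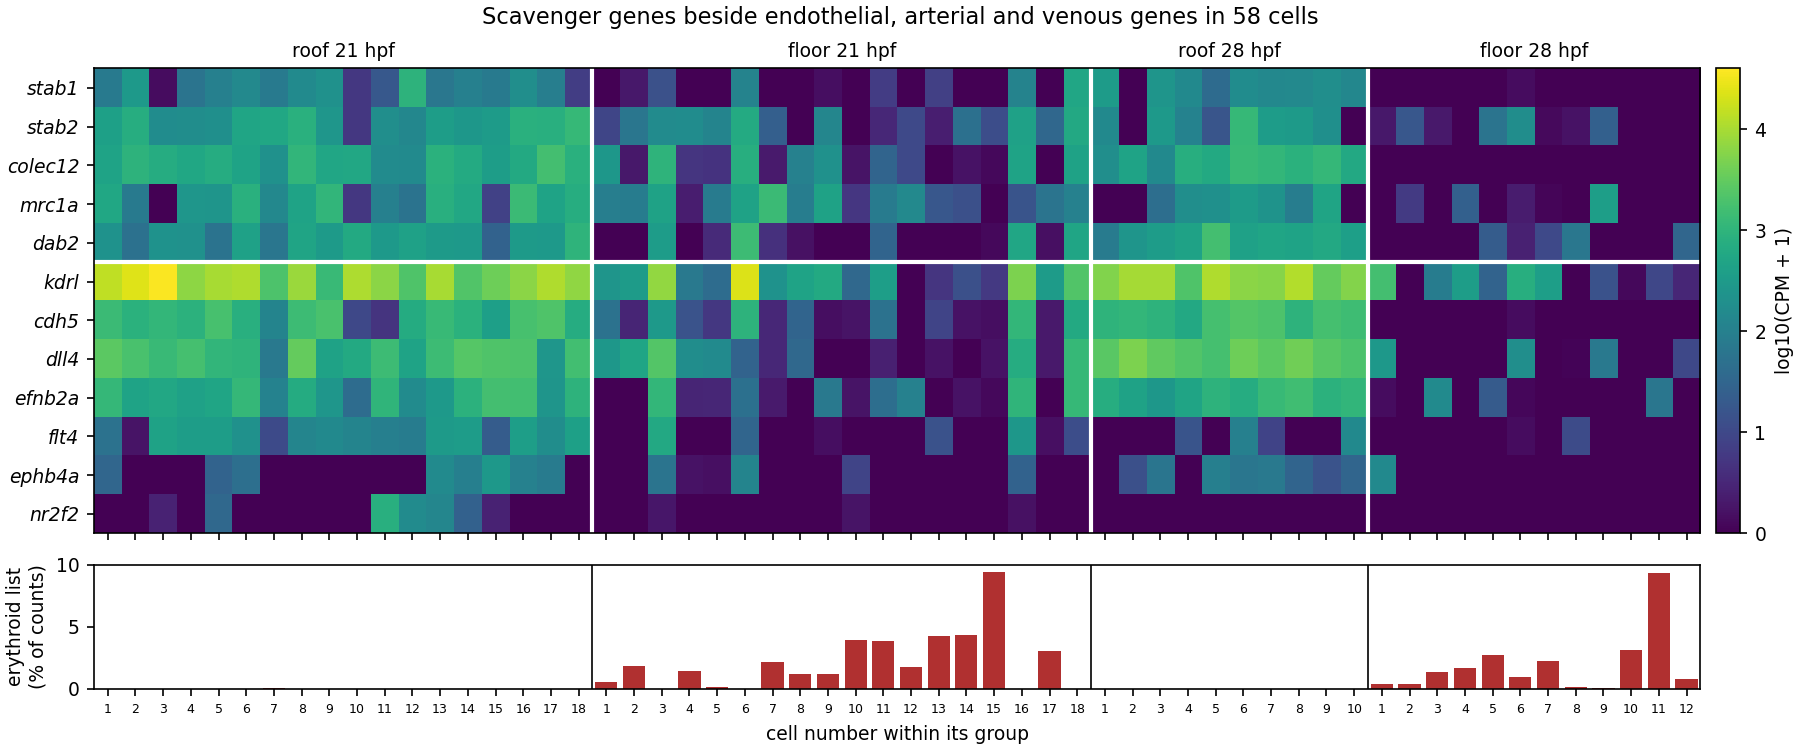
Levels of the 5 scavenger genes (above the white line) and of endothelial, arterial and venous genes in 58 cells, as log10(CPM + 1), with the share of counts on the erythroid list below (% of counts). Floor cells 3, 6, 11, 16 and 18 of 21 hpf hold reads of all 5 genes, and colec12 is at 0 in all 12 floor cells of 28 hpf.

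At 21 hpf the floor was compared with the roof of the vessel, the 2 sides of the vessel that the labels set apart. All 5 genes were lower in the floor sum, and stab1, stab2 and colec12 by 2-fold or more. Among 12949 genes with 10 or more thinned reads over both groups, 25.8% were lower by 2-fold or more and 33.1% higher, 58.9% in all. The median log2 ratio of the 5 genes was -1.66, beside 0.15 for all these genes. For each of the 5, the cells of the floor and the roof overlapped, as they did for every gene measured. The count of 3 rests on the thinning and on single cells: it was 5 on the unthinned sums, and 4 with another seed or depth of thinning, where mrc1a passed 2-fold.

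For stab1, roof cells of 21 hpf ranged from 0.426 to 931 CPM with a median of 86.0, and floor cells from 0 to 518 with a median of 0. Roof cell 12 held the highest value, followed by roof cell 2 at 291, and 10 of 18 floor cells had no read. The summed level was 139.7 CPM (127 to 153) in the roof and 44.2 (37.6 to 51.6) in the floor, lower by 3.16-fold (2.64 to 3.81). Floor cell 18 gave 67.1% of the floor's summed per-cell levels, and without it the difference was 8.05-fold. Without roof cell 12 it was 2.00-fold.

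For stab2, roof cells ranged from 4.51 to 1197 CPM with a median of 347, and floor cells from 0 to 646 with a median of 40.7. Reads of this receptor gene were found in 16 of 18 floor cells, although mostly at low levels. The sum was 454 CPM (431 to 477) in the roof and 135 (123 to 148) in the floor, lower by 3.36-fold (3.03 to 3.73).

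For colec12, every roof cell had at least 157 CPM, with a median of 599.6 and a highest value of 1677. Floor cells ranged from 0 to 985 with a median of 6.63, so that the typical floor cell lay far below the lowest roof cell while the endothelial floor cells, at 448 to 985, lay within the roof's range. The sum was 640.3 CPM (614 to 668) in the roof and 182.5 (169 to 197) in the floor, lower by 3.51-fold (3.21 to 3.83).

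The mannose receptor gene mrc1a differed least in how many cells held it. Roof cells ranged from 0 to 1356 CPM with a median of 356, and floor cells from 0 to 1357 with a median of 83.0. At least 5 thinned reads were found in 13 of 17 roof cells (76.5%, 50.1% to 93.2%) and in 12 of 18 floor cells (66.7%, 41.0% to 86.7%). Without thinning, 16 of 18 roof cells and 16 of 18 floor cells had 5 or more reads. The sum was 394 CPM (373 to 415) in the roof and 205 (191 to 221) in the floor, lower by 1.92-fold (1.75 to 2.10). Floor cell 7 had the highest level of any cell, with 2.20% erythroid and 0.229% pan-endothelial counts, and without it the difference was 2.92-fold. With another seed it was 2.09-fold. Myeloid markers, listed because the mannose receptor also marks macrophages in mammals, took a median of 0.107% of the counts in floor cells and 0.00488% in roof cells. The related gene mrc1b had no thinned read in any group.

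For the adaptor gene dab2, roof cells ranged from 27.3 to 969.8 CPM with a median of 302, and floor cells from 0 to 1415 with a median of 0.389. It was detected in all 17 thinned roof cells and in 4 of 18 floor cells (22.2%, 6.41% to 47.6%), or in 18 of 18 and 6 of 18 without thinning. These 4 floor cells were the endothelial ones. The sum was 301 CPM (283 to 321) in the roof and 166 (153 to 180.3) in the floor, lower by 1.81-fold (1.64 to 2.01). That ratio was 3.34-fold without floor cell 6, which held 49.5% of the floor's summed per-cell levels, and 2.15-fold and 2.09-fold without floor cells 16 and 18.

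**Figure D2:**
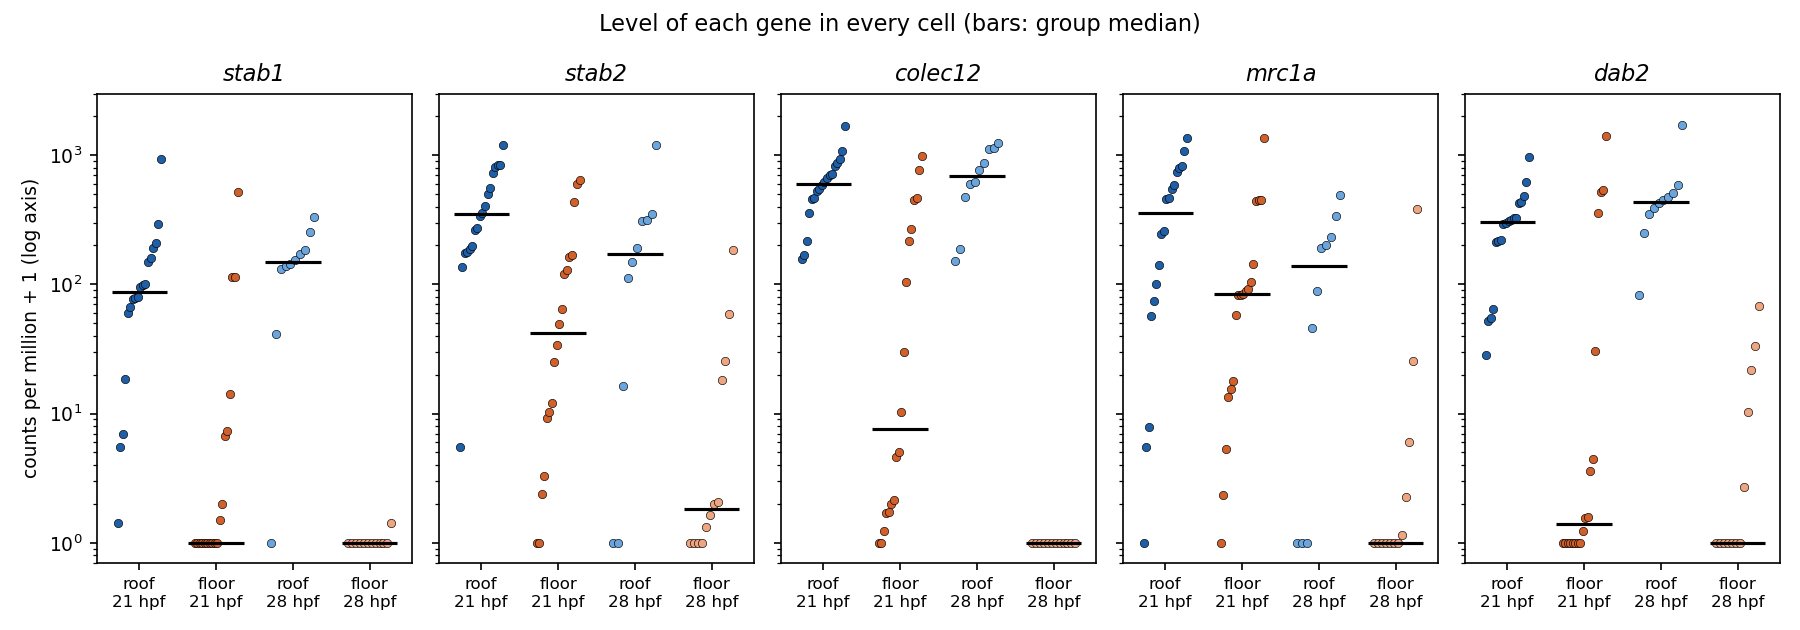
Level of each of the 5 genes in every cell, as CPM + 1 on a log axis, with cells of a group sorted by level and a bar at the group median. Roof cells of 21 hpf lie at 157 CPM or more for colec12, whereas most floor cells of that stage lie below 30, and all 12 floor cells of 28 hpf are at 0.

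The 5 genes parted among the floor cells of 21 hpf. In the 4 endothelial floor cells, stab1 ranged from 13.1 to 518 CPM, stab2 from 163 to 646, colec12 from 448 to 985, mrc1a from 14.4 to 450.3 and dab2 from 355 to 1415. All of these values but the highest of dab2, in floor cell 6, lay within the range of the roof cells. In the other 14 floor cells, 5 or more thinned reads were found in 9 for mrc1a, 7 for stab2, 4 for colec12, 0 for stab1 and 0 for dab2, where low levels could be missed at this depth. The highest values in these 14 cells were 1357 CPM for mrc1a, 268 for colec12 and 168 for stab2, but 29.8 for dab2 and 6.29 for stab1. The junction gene cdh5 was at 54.2 CPM or less there and kdrl at 611 or less. Floor cell 9, with 1.19% erythroid counts, held 450.1 CPM of mrc1a, 215 of colec12 and 127 of stab2 beside 0.511 of cdh5 and no read of dab2. Myeloid markers took 0.0771% of the counts of floor cell 7 and 0.0324% of those of floor cell 9. Both lay below the floor median of 0.107% and above the roof median of 0.00488%. Because the 4 cells were set apart by endothelial genes, the split itself is a description. Without them, all 5 genes were lower in the floor by 2-fold or more, from 2.11-fold for mrc1a to 169-fold for dab2, which then rested on 5 thinned floor reads. When the floor cells with more than 1% of erythroid counts were left out instead, none passed 2-fold and dab2 was higher in the floor by 1.64-fold. The cells left were the 4 endothelial floor cells and 2 others. This choice also favours endothelial genes, so these ratios are a description too.

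At 28 hpf all 5 genes were lower in the floor by 2-fold or more, as were 35.7% of the 11198 genes measured, while 34.8% were higher and 70.5% passed either way. The median log2 ratio of the 5 was -5.54, beside 0.05 for all measured genes. For colec12 and dab2 every floor cell lay below every roof cell, which 1.38% of the measured genes also showed.

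No floor cell of 28 hpf had a read of colec12, thinned or not, over 70870931 counts in all. Roof cells held 150.4 to 1246 CPM with a median of 690.4. The roof sum was 725.5 CPM (689 to 764) and the floor was lower by at least 580.4-fold, with 0 thinned reads set to 3 over the group, equal to 1.25 CPM. For stab1, 9 of 10 roof cells had reads, with a median of 148 CPM and a highest value of 329, and the only 2 reads of the floor were both in floor cell 6. The roof sum was 152 CPM (135 to 170.1), and the floor, having no thinned read, was lower by at least 121.6-fold. Neither gene reached 5 thinned reads in any of the 12 floor cells. Were the cells independent draws, this would allow a share of up to 25% of cells by 3 divided by their number. The Clopper-Pearson interval, which makes the same assumption, allows up to 26.5%.

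For dab2, roof cells of 28 hpf ranged from 82.3 to 1697 CPM with a median of 436, and floor cells from 0 to 66.8 with a median of 0. The highest floor cell, cell 8, lay just under the lowest roof cell, cell 1. The sums were 541 CPM (509 to 574) and 11.7 (7.75 to 16.9), a difference of 46.4-fold (31.9 to 70.1). Leaving out floor cell 8 made it 119-fold.

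Single floor cells held most of the stab2 and mrc1a reads of 28 hpf. Roof cells ranged from 0 to 1190.0 CPM of stab2 with a median of 170.04, and floor cells from 0 to 182 with a median of 0.822. The floor was lower by 11.3-fold (8.52 to 15.2), at 22.5 CPM against 254. Leaving out floor cell 6 gave 29.4-fold and leaving out roof cell 6 gave 6.81-fold. For mrc1a, roof cells ranged from 0 to 493.1 CPM with a median of 139, and floor cells from 0 to 383 with a median of 0. The difference was 5.23-fold (4.06 to 6.80), at 31.7 against 165.5 CPM. Floor cell 9 gave 92.5% of the floor's summed per-cell levels of mrc1a, and the difference without it was 26.01-fold. Floor cell 6 is the cell of 8.64% muscle counts, and floor cell 9 had the fewest genes with a thinned read of its group, 1989 beside a median of 5201. The sample descriptions of 28 hpf start with a further mark whose meaning they do not give, M8 to M12 in the floor and dorsal1 to dorsal3 in the roof. No mark is shared between the sides, so at 28 hpf side and any difference in handling cannot be told apart. For 1 of the 6 floor cells of M12, cell 12, the title has D in place of the M. Without the 6 floor cells of M12 the ratios were 6.35-fold for stab2, 14.2-fold for mrc1a and 72.1-fold for dab2. Without the 5 roof cells of dorsal3 they were 5.11-fold for stab2 and 2.94-fold for mrc1a. For mrc1a the ratio was 3.17-fold with DESeq2 size factors on unthinned sums. Leaving out cells with more than 1% of erythroid or of muscle counts, stab2 was lower by 28.2-fold, dab2 by 28.5-fold and mrc1a by 2.51-fold.

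**Figure D3:**
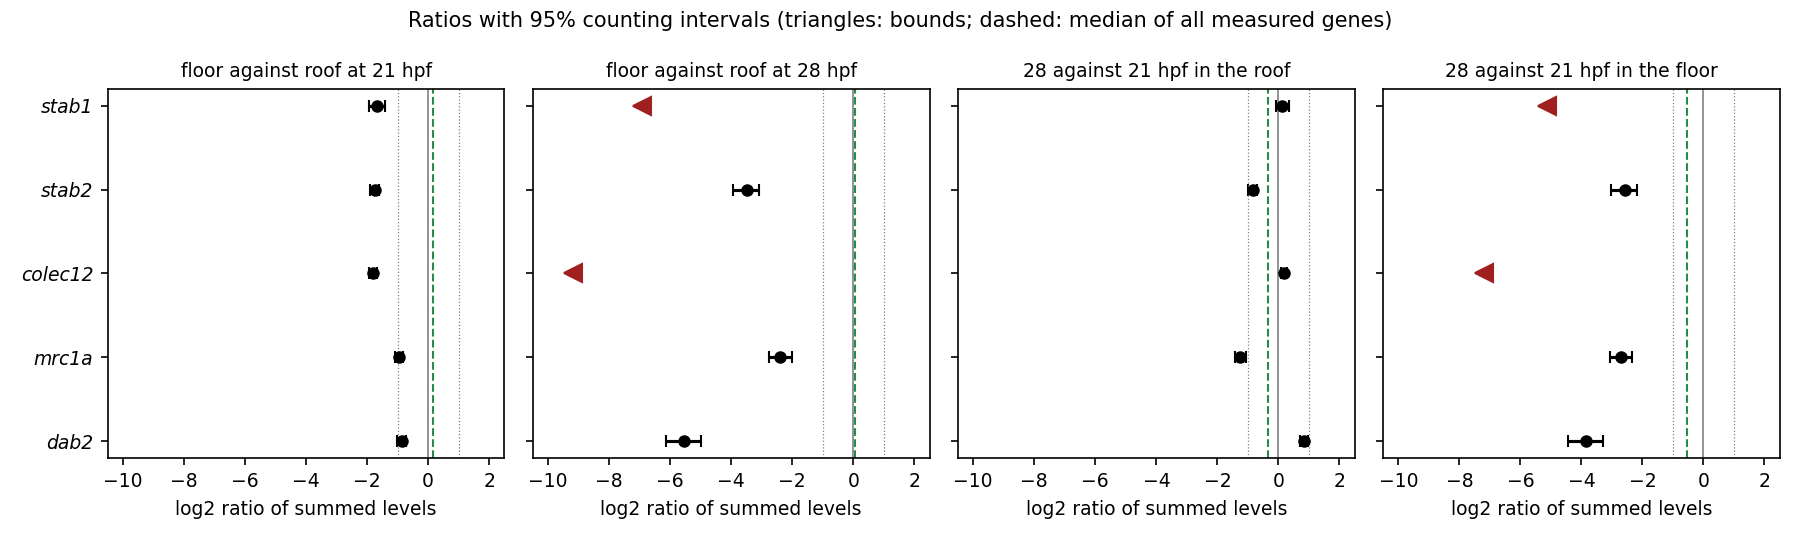
Log2 ratio of the summed levels of each gene in the 4 comparisons, with 95% counting intervals as bars, triangles for bounds where a group had no thinned read, a dashed line at the median of all measured genes and dotted lines at 2-fold. All 5 genes lie left of 0 in both comparisons of the floor with the roof, and 3 of the 5 lie right of 0 between stages in the roof.

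In the roof, levels at 28 hpf were compared with those at 21 hpf. The stages differ in depth and in how cells were titled, and stage and any difference in handling cannot be told apart. The mannose receptor gene mrc1a was lower at 28 hpf by 2.38-fold (2.11 to 2.69), at 165.5 against 394 CPM, and the other 4 genes stayed within 2-fold. Of 11631 measured genes, 35.3% were lower at 28 hpf by 2-fold or more and 22.7% higher, and their median log2 ratio was -0.33. Cell values of the stages overlapped for all 5 genes, and the share of all genes that did so was not computed.

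Within those limits the genes did not move together in the roof. Lower values at 28 hpf were found for stab2, at 254 against 454 CPM (1.79-fold, 1.61 to 1.98), as for mrc1a. Higher values were found for dab2, at 541 against 301 CPM (1.79-fold, 1.65 to 1.96), and for colec12, at 725.5 against 640.3 (1.13-fold, 1.06 to 1.21). For stab1 the ratio of 1.09-fold (0.939 to 1.26) was within the counting error. These ratios depended on single cells. That of stab2 was 2.96-fold without roof cell 6 of 28 hpf, and mrc1a was lower by 1.998-fold without roof cell 16 of 21 hpf. Without roof cell 12 of 21 hpf, stab1 was higher at 28 hpf by 1.72-fold, and without roof cell 1 of 28 hpf lower by 1.05-fold. For dab2 the ratio was 2.07-fold without roof cell 18 of 21 hpf and 1.35-fold without roof cell 5 of 28 hpf. Without the 5 cells of dorsal3, colec12 was lower at 28 hpf by 1.43-fold, stab2 by 3.94-fold and mrc1a by 4.23-fold, and without the 4 cells of dorsal2 mrc1a was lower by 1.99-fold. At 28 hpf, mrc1a had no read in roof cells 1, 2 and 10, and stab2 none in cells 2 and 10, although these 3 cells had 4080525 counts or more and held 82.3 to 390.2 CPM of dab2.

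In the floor, all 5 genes were lower at 28 hpf by 2-fold or more, as were 41.9% of 12252 measured genes, with 58.8% past 2-fold either way. Their median log2 ratio was -0.55. The bounds were at least 146-fold for colec12 and at least 35.3-fold for stab1. The ratios were 14.3-fold (9.77 to 21.6) for dab2, 6.48-fold (5.11 to 8.32) for mrc1a and 6.00-fold (4.52 to 8.10) for stab2. Without floor cell 18 of 21 hpf the bound of stab1 was 13.9-fold, and without floor cell 6 of that stage the ratio of dab2 was 7.74-fold. Leaving out a floor cell of 28 hpf gave 15.6-fold for stab2 without cell 6, 32.3-fold for mrc1a without cell 9 and 36.6-fold for dab2 without cell 8. For mrc1a the ratio was 4.26-fold without floor cell 7 of 21 hpf. Other scalings moved the ratios: unthinned sums gave 3.02-fold for mrc1a and 7.89-fold for dab2, and DESeq2 size factors on them 2.22-fold for mrc1a, 5.80-fold for dab2 and 3.79-fold for stab2. Leaving out cells with more than 1% of erythroid or of muscle counts kept the 4 endothelial floor cells and 2 others at 21 hpf. On the cells kept, stab2 was lower at 28 hpf by 35.8-fold, dab2 by 26.1-fold and mrc1a by 3.28-fold. Over all thinned floor cells, the pan-endothelial list had a median lower at 28 hpf by at least 20.2-fold, with 9 of its 20 genes at their bound. That median was not computed on the cells kept. Without the 4 endothelial floor cells of 21 hpf, stab2 was lower by 1.95-fold and dab2 was higher at 28 hpf by 6.53-fold, the latter from few reads in either group.

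Across the 4 groups the order of the summed levels was not the same for the 5 genes. For colec12 and stab1 it ran from the roof at 28 hpf over the roof and the floor at 21 hpf to the floor at 28 hpf, and the intervals of the roof levels of stab1 overlapped. For dab2 the order was the same, with 541, 301, 166 and 11.7 CPM. For stab2 the roof at 21 hpf led, with 454 CPM, before the roof at 28 hpf (254), the floor at 21 hpf (135) and the floor at 28 hpf (22.5). Only for mrc1a did the floor at 21 hpf (205) stand above the roof at 28 hpf (165.5). The cell medians of mrc1a had the reverse order, at 83.0 CPM in that floor and 139 in that roof. Floor cell 7 gave 39.0% of the summed per-cell levels of mrc1a in the floor at 21 hpf. In each order by sums, neighbouring groups had overlapping ranges of cells, for colec12 in the floor only at 0.

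Most roof cells held all or nearly all of the 5 genes. At least 5 thinned reads of all 5 were found in 11 of 17 roof cells at 21 hpf and 6 of 10 at 28 hpf, and of 4 genes in a further 4 and 2 cells. The floor had all 5 in 2 of 18 cells at 21 hpf, cells 6 and 18, and in 0 of 12 at 28 hpf, where 7 cells had none. Over the 27 thinned roof cells, colec12 and dab2 were detected in all. All 20 roof cells with mrc1a also had stab2, and 4 had stab2 without mrc1a. Over the 30 floor cells, 9 had both of these genes, 5 had mrc1a alone and 5 stab2 alone.

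**Figure D4:**
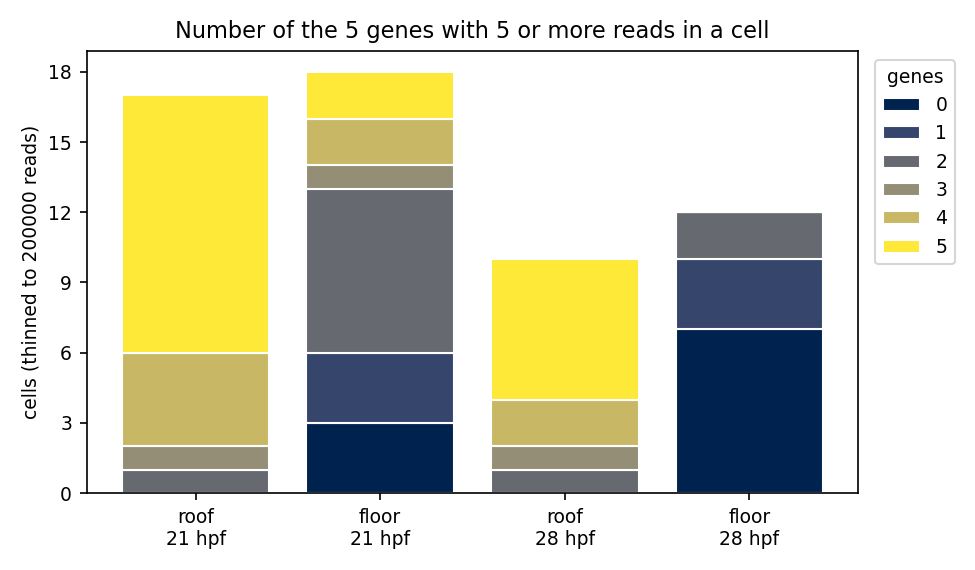
Number of cells of each group by how many of the 5 genes had 5 or more reads after thinning to 200000 reads. All 5 genes were found in 11 of 17 and 6 of 10 roof cells but in 2 of 18 and 0 of 12 floor cells.

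Spearman's rank correlation over cells is given as a description, since all cells of a group share their source and the difference between roof and floor enters every value over all cells. Among 7211 genes, those named here were among the 3 most like each member over 57 cells. For colec12 they were clec14a, an endothelial membrane lectin (0.89), and the tetraspanin gene cd81a (0.87). For dab2 they were the forkhead gene foxp4 (0.83), the Rab5 exchange factor gene rin3 (0.83) and ldb2a (0.82). For stab1 they were phactr4b (0.81) and the ephrin gene efna1b (0.80). For stab2 they were the receptor gene notch1a (0.79), the matrix gene tgfbi (0.79) and rgl1 (0.76). For mrc1a the values were lower, with the chaperone gene calr (0.66), si:dkeyp-94b4.1 (0.64) and galnt2 (0.64).

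Within the 27 roof cells the same measure differed between pairs. It was 0.62 for stab2 and mrc1a, 0.41 for colec12 and mrc1a, 0.38 for stab2 and colec12 and 0.37 for colec12 and dab2. Within each stage it was 0.60 for stab2 and mrc1a at both 21 and 28 hpf, but 0.16 and 0.77 for colec12 and dab2. Pooled values do not show how far the stages lie apart, and differences between stages were not tested. For mrc1a it was 0.37 at 21 hpf and 0.89 at 28 hpf with dab2, and 0.29 and 0.87 with colec12. For stab2 with dab2 it was -0.06 over all roof cells, but 0.04 and 0.39 within the stages. For stab2 with colec12 it was 0.51 within each stage. For stab1 it was low in both stages with colec12 (0.04 and -0.17), and was 0.30 and 0.03 with mrc1a and 0.01 and -0.25 with dab2. With stab2, stab1 had 0.35 and 0.26 within the stages and 0.18 over all roof cells. The 28 hpf values rest on 10 cells. Over all roof cells it was, with kdrl, 0.25 for colec12, 0.22 for stab2, 0.05 for mrc1a, -0.02 for dab2 and -0.34 for stab1. With cdh5 it was 0.56 for colec12, 0.33 for mrc1a, 0.26 for stab2, 0.19 for dab2 and 0.11 for stab1. These values also differed between stages, as for colec12 with kdrl (0.53 and -0.15) and dab2 with cdh5 (-0.08 and 0.62). Within the roof cells the most alike genes had 0.46 (clec14a) and 0.56 (cd81a) with colec12. With dab2 they had 0.22 (foxp4), 0.48 (rin3) and 0.33 (ldb2a), and with stab1 0.47 (phactr4b) and 0.44 (efna1b). With stab2 they had 0.69 (notch1a, 0.65 and 0.50 within the stages), 0.58 (tgfbi) and 0.47 (rgl1). With mrc1a they had 0.55 (calr), 0.54 (si:dkeyp-94b4.1) and 0.65 (galnt2).

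Other scavenger and endocytic receptors went both ways. Of 28 such genes in the table, 16 had a thinned read and 12 had none in any group, among them the class B receptor gene cd36, marco, lrp2a and ldlra. Of 13 measured between floor and roof at 21 hpf, 6 were lower in the floor by 2-fold or more, 4 higher and 3 within 2-fold, with a median lower by 1.94-fold. At 28 hpf the counts were 6, 3 and 2 of 11, with a median lower by 4.40-fold, taken with 4 of these genes at their bound. The receptor gene scarf1 had 50.3 CPM in the floor and 773 in the roof at 21 hpf, a difference of 15.4-fold (13.2 to 17.97), and one of 58.6-fold (33.3 to 114) at 28 hpf. The lysosomal receptor gene scarb2a differed in the same direction by 3.14-fold (2.62 to 3.77) at 21 hpf and 78.9-fold (30.5 to 292) at 28 hpf. The transferrin receptor gene tfr1a, which erythroid cells use for iron, had 187 CPM in the floor and 1 thinned read in the roof at 21 hpf, a ratio of 635-fold (114 to 25105). Between stages in the roof, 4 of 11 were higher at 28 hpf, 3 lower and 4 within 2-fold, with scarf1 lower by 2.64-fold (2.41 to 2.89). In the floor 6 of 11 were lower, 3 higher and 2 within, with ly75, a relative of the mannose receptor, higher by 4.86-fold (3.64 to 6.57) and scarb1 lower by at least 42.9-fold. At 28 hpf a second transferrin receptor gene, tfr1b, was higher in the floor than in the roof by at least 76.7-fold.

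Between floor and roof, genes of the clathrin coat and its adaptors differed less by their medians than the other receptors above. Of all measured genes, 25.8% were lower in the floor by 2-fold or more at 21 hpf and 33.1% higher. At 28 hpf these shares were 35.7% and 34.8%. Between stages, 35.3% were lower and 22.7% higher in the roof, and 41.9% and 16.9% in the floor. They are the background for the list counts here and in the paragraphs beside. Of 27 measured genes of the clathrin coat and its adaptors, 6 were lower in the floor at 21 hpf by 2-fold or more, 4 higher and 17 within, with a median lower by 1.04-fold. The adaptor subunit gene ap2m1a had 894 CPM in the floor and 926 in the roof (1.04-fold lower, 0.986 to 1.09). The clathrin light chain gene clta had 224 and 275 CPM (1.23-fold lower, 1.12 to 1.35). The intersectin gene itsn2b was lower by 15.7-fold (11.5 to 21.9), and the sorting nexin gene snx9a was higher by 36.8-fold (17.6 to 92.5). At 28 hpf, 10 of 26 were lower, 2 higher and 14 within, with a median lower by 1.39-fold, ap2s1 higher by 2.60-fold (2.22 to 3.05) and myo6b lower by at least 42-fold. Between stages in the roof, 3 were lower, 7 higher and 16 within of 26, among them the dynamin gene dnm2a, higher by 3.34-fold (2.37 to 4.74), and itsn2b, lower by 3.13-fold (2.57 to 3.83). In the floor 9 were lower, with fcho2 at 3.00-fold (2.30 to 3.98), 1 higher and 16 within of 26.

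Of 22 endosome and lysosome genes, 2 were lower in the floor at 21 hpf, 3 higher and 17 within 2-fold, with a median lower by 1.09-fold. The early endosome gene rab5c was lower by 1.999-fold (1.88 to 2.13) and rab5aa by 2.52-fold (2.12 to 2.99), while the protease gene ctsba was higher by 3.31-fold (2.60 to 4.25). At 28 hpf 7 of 21 were lower, 4 higher and 10 within, with a median lower by 1.64-fold and rab11ba higher by 2.76-fold (2.36 to 3.23). The lysosomal protease gene ctsla had 2.08 CPM in the floor against 636.5 in the roof at 28 hpf, lower by 306-fold (131 to 943), and was 1.51-fold (1.37 to 1.66) lower at 21 hpf. In the roof it was higher at 28 hpf by 2.14-fold (1.97 to 2.32), while 6 of the 21 genes measured there were lower, with hexb at 2.58-fold (2.19 to 3.04), 2 higher and 13 within. In the floor 12 of 22 were lower at 28 hpf, 1 higher and 9 within, with rab5ab higher by 1.60-fold (1.37 to 1.86) and ctsla lower by 94.7-fold (40.4 to 292).

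The venous and lymphatic list was lower in the floor at both stages. Of 8 measured genes, 6 were lower and 2 higher at 21 hpf, with a median lower by 3.59-fold, and at 28 hpf 6 were lower, 1 higher and 1 within, with a median lower by 16.3-fold, again with 4 at their bound, among them ephb4b, lower by at least 46-fold. The arterial and Notch list had medians lower by 3.03-fold and 59.2-fold in the same comparisons, with 1 and 5 of its 13 genes at their bound, so genes of both vessel types were lower in the floor. Between stages in the roof, 3 of the 8 venous genes were lower at 28 hpf, 2 higher and 3 within. Of all measured genes, 35.3% were lower and 22.7% higher there. The higher venous genes, named after their values were seen, were nrp2a, at 24.5 CPM against 9.41, and nrp2b, at 32 against 6.76. The lower venous genes were flt4 by 8.05-fold (6.07 to 10.9), the apelin receptor gene aplnra by 5.64-fold (4.02 to 8.15) and nr2f2 by at least 42.5-fold. Of the 5 scavenger genes, stab2 was lower there by 1.79-fold and mrc1a by 2.38-fold. The others were higher, dab2 by 1.79-fold, colec12 by 1.13-fold and stab1, within the counting error, by 1.09-fold.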

How the data were processed

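The authors deposited raw counts per gene and cell, with no normalization. Per the submitters' processing notes, the tools used were Trim Galore and STAR, with the build GRCz11 (danRer11), on paired-end reads of 150 bp. For the counter, its gene models, its strand mode and all tool versions nothing is given in the sources used here, so reads of overlapping or antisense genes may be mixed. Groups came from the sample titles. Of the IDs without a symbol, 4606 were given one from a table of IDs and names. A symbol shared by several entries went to the one of highest total count, and the other 1869 entries stayed under their IDs.

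By random draws without replacement (seed 1), all cells were brought to 200000 reads, leaving 57 of 58. Summed reads were 3400000 (roof) and 3600000 (floor) for 21 hpf, and 2000000 and 2400000 for 28 hpf. A gene was measured with 10 or more reads over both groups and detected in a cell with 5 or more. A group at 0 reads was set to 3, and the ratio given as a bound. No 2 cells held identical values. The 12 context lists held 208 genes, of which 197 were in the table. The 5 genes, the lists and the alternatives were chosen with earlier results of these data known. Beside the 5 genes, the text names 7 vessel markers, the 3 genes most alike by Spearman's rank correlation over all genes with 5 or more reads in 10 or more cells (2 of which are not reported here), and in the endocytic, endosomal and venous lists the 2 genes of most reads and those of largest ratio at 50 CPM or more, in at least 1 comparison each. The rule also covers the lists of other cell types, which are given mainly as counts and shares. The remaining marker names say which genes were at 0 or, for vwf, tal1, lmo2 and slc20a1a, which went the other way, named after their values were seen. The steps were tested on simulated data. Tools were Python 3.11.15, numpy 2.4.6, pandas 2.3.3, scipy 1.17.1, and for alternative scalings edgeR 4.0.16 and DESeq2 1.42.0 in R 4.3.3.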

Additional observations from a re-analysis of the deposited data

Results flagged for a closer look

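Of the 5 genes screened for a cell standing apart among the 10 roof cells of 28 hpf, 2 had one, by the gap of the highest or lowest cell to the next over the whole range. The limit used, 0.466 of the range, is passed by chance in about 1 in 20 groups of independent and normally distributed values. Cell levels are skewed and the cells share their source, so that rate need not hold here. For stab2 it was roof cell 6, at 1190.0 CPM beside 349 in the next cell, with a gap of 0.707 of the range. For dab2 it was roof cell 5, at 1697 CPM beside 591 in the next, with a gap of 0.685 of the range. Roof cell 6 also had the highest colec12 level of its group, 1246 CPM, and roof cell 5 had 15.3 CPM of stab2.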

How the results depend on the processing

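At 28 hpf all 5 genes were past 2-fold, lower in the floor, under each of the alternatives that were run. At 21 hpf 3 genes were past 2-fold. This number was 4 with mean per-cell CPM, another seed and thinning to 100000 or 400000 reads. The number was 5 with raw sums, with TMM factors, with DESeq2 size factors and without the 4 endothelial floor cells. It was 0 without cells of over 1% erythroid or muscle counts, which left the 4 endothelial floor cells and 2 others. Leaving out single cells gave 3 to 5, with 5 only without floor cell 6. Between stages in the roof the number of 1 became 0 without the 28 hpf cells of dorsal2 and 2 without those of dorsal3, and ranged from 0 to 2 over single cells. Between stages in the floor the number of 5 became 3 without the 4 endothelial floor cells, where the log2 ratio of dab2 turned from -3.83 to 2.71. No other ratio past 2-fold changed its sign. At 21 hpf raw sums gave log2 ratios of -2.47 for stab1, -1.38 for mrc1a and -1.60 for dab2, and DESeq2 size factors 2.93-fold (mrc1a) to 6.23-fold (stab1). With few or no floor reads at 28 hpf, the ratios of stab1 and colec12 moved with the depth. The thinning to 100000 and 400000 reads gave bounds of 273-fold and 1128-fold for colec12. No paired analysis was possible because the cells of a group count as 1 sample and groups were compared without a test. Detection at 200000 reads limits statements on single cells near 5 reads.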
